A study of Tripsacum dactyloides with 133 samples.

Results

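Gamagrass plants that received a live soil microbial inoculum were compared with plants that received a mock inoculum, all of them under drought in the test phase. The comparison was defined by the sample labels and held 67 crown root libraries, 63 of them live and 4 mock, out of a series in which the other 66 came from well-watered plants, and it was made across all 45865 genes of the count table. Eastern gamagrass (*Tripsacum dactyloides*) is a perennial prairie grass related to maize, and the plants were grown from seed of the cultivar Pete. The live inocula were microbial extracts of Kansas prairie soils, from the sites CWR (Clinton Wildlife Reserve, 16 drought plants), WEL (Welda Prairie, 15 plants), SVR (Smoky Valley Ranch, 16 plants) and TRI (Tribune, 16 plants). Before extraction these soils had been conditioned with a gamagrass host or with no host, under drought stress or ample water. By conditioning, the live drought plants fell into 16 with host and drought stress, 15 with host and ample water, 16 without host and with drought stress, and 16 without host and with ample water. In the mock inoculum sterile buffer took the place of the microbial suspension in the same medium. All plants, live and mock, grew in the same autoclaved sand and clay mixture in a growth chamber, with the same drought treatment. Each library came from 1 crown root of 1 plant, the extracts of different conditioning pots were not pooled, and the labels number every plant separately, so that p-values measure the spread between plants. A bulk root library cannot tell fewer cells of a type from less RNA per cell. Identifiers are given as the deposited tables have them, because neither table pairs them with gene names.

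Crown roots are the shoot-borne roots of grasses, which grow from the base of the stem and take up water and nutrients beside the soil microorganisms. Plants generally perceive microbes through surface receptors that switch on defence genes, such as those for pathogenesis-related proteins, and through a separate symbiosis pathway that admits mycorrhizal fungi. Under water deficit, roots also respond through the hormones abscisic acid (ABA) and ethylene, and through heat shock proteins that protect other proteins from unfolding, while nicotianamine is a chelator that carries iron and other metals through the plant. A plant given sterile buffer in sterilized substrate is the reference against which such responses to an inoculum can be seen. The question of this comparison was which crown root transcripts differed with the presence of a live inoculum during drought.

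Total counts ranged over 13.6 to 64.2 M per live library (median 52.8 M, where M is 1e+06 counts), against 38.04 to 61.6 M per mock library (median 46.3 M). Between 33167 and 37110 genes had a count in live libraries, and between 34999 and 37171 in mock libraries. Taken over the whole transcriptome, the mock plants did not stand apart. In a principal component analysis of log2 CPM (counts scaled to the size of each library), PC1 held 19.1% of the variance and ran from -197.4 to 208.2 in live libraries, against -104.6 to 118.9 in mock libraries. PC2 held 10.01% and ran from -199.1 to 103.6 in live libraries, against -79.1 to 61.5 in mock libraries. Inoculum type accounted for 1.09% of the variation in PERMANOVA over 35828 genes, where 1 of the 66 degrees of freedom is 1.52% (exact permutation p = 0.942 over all 766480 assignments of the mock label). The share with Bray-Curtis distances was 1.22% (exact permutation p = 0.606). The median distance of a live library to the other live libraries was 286.5 to 368.6 (Euclidean, in log2 CPM), against 285.8 to 327.9 for the distance of a mock library to the live libraries.

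**Figure D1:**
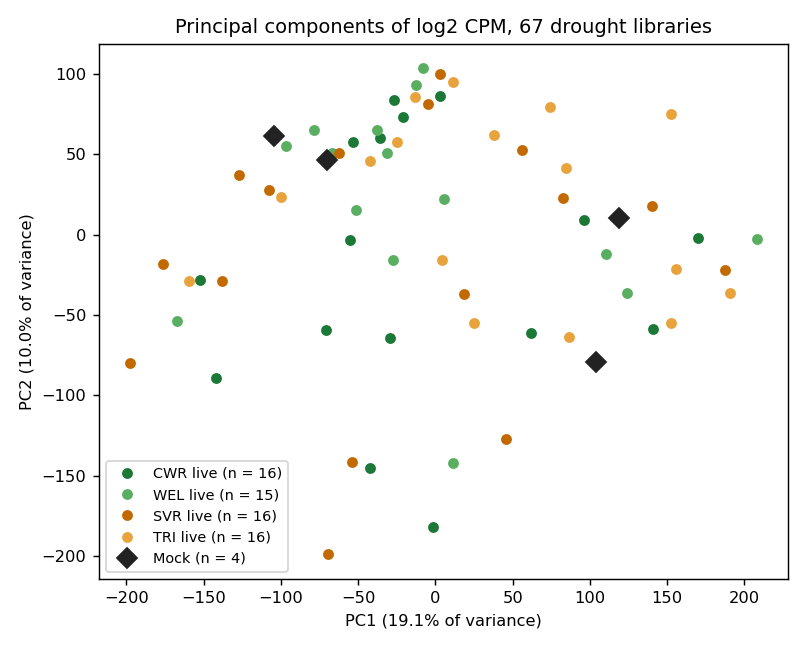
Each point is 1 of the 67 drought libraries on the first and second principal component of log2 CPM (axes in component scores, with the percent of variance), coloured by the site of the live inoculum, with mock libraries as diamonds. The 4 mock libraries lie within the range of the 63 live libraries on both axes.

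Gene by gene, DESeq2 called 39 of 43696 genes at an adjusted p under 0.05, which is 0.0893% of the genes tested. Of these, 30 were higher in live plants (0.0687%) and 9 were lower (0.0206%). The edgeR quasi-likelihood test called 15 of 35828 genes (0.0419%), of which 0 were higher and 15 lower, and 5 of the 15 were also among the DESeq2 calls, all 5 of them lower. An exact rank-sum test called none of 35828 genes (0.00%). With 4 mock libraries its smallest possible p is too large for a single gene to pass the adjustment alone. The lack of rank-sum calls therefore decides nothing about single genes. In that test 1046 genes had an unadjusted p under 0.05, against 1087 in edgeR and 1520 in DESeq2. These are 2.92%, 3.03% and 3.48% of the genes with a p-value. Live and mock values overlapped for every one of the 35828 genes (0.00% without overlap), the called ones included. The median log2 fold change over all 44103 genes fitted was 0.05, a value that the scaling of the libraries sets near 0. In counts simulated from these libraries with known changes, DESeq2 called more unchanged genes than edgeR or the rank-sum test did. The planted changes loosen the adjusted threshold, so the number of such calls is not comparable with the 39 calls here. All tests were run on the same simulated counts, so the excess of DESeq2 over the other tests was seen under the same planted changes. How many of the 39 calls are false was not estimated. False calls among the 39 cannot be told apart from true ones by the adjusted p alone.

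The 30 genes called higher in live plants were mostly silent in mock plants and switched on in only a part of the live plants. In 17 of the 30, all 4 mock libraries had a count of 0, and in 27 all 4 mock libraries were under 10 normalized counts. In 14 of the 17 the live median was 0 as well, with 35 to 48 live libraries at 0, and these 14 genes reached 10 normalized counts in only 8 to 17 of the 63 live libraries. Zero counts in all mock libraries were not rare, since 9.62% of the genes fitted had them. Among all genes at 0 in the 4 mock libraries, 85 reached 10 normalized counts in at least 8 live libraries, and 17 of these 85 were called. A count of 0 over the 4 mock libraries allows a group mean of up to 0.81 normalized counts (a floor of 3 counts over the group, covering counting error only). Against that floor, mean levels of the 17 genes in live plants were at least 9.58-fold to at least 350-fold higher. The spread between plants is not in that floor. These values therefore hold for the plants measured and do not bound a fold change between live and mock plants in general.

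Td00002ba033558 (chr11:80523568-80525241, no maize orthologue in the deposited table) had the highest fold change among called genes with a mean of 50 or more. Its normalized count was 0 at the lowest, 0 at the median and 727 at the highest in live plants, against 0, 0, 0 and 0 in mock plants. Of the live libraries 45 were at 0 as well, 18 were above 0, and 9 reached 10 or more, so the mock values coincided with those of most live plants. Those 9 plants were spread over the sites, as 3 had TRI inoculum, 2 SVR, 1 WEL and 3 CWR. For counting error only, the mean of the live plants measured was at least 111.7-fold above that of the mock plants. DESeq2 gave a log2 fold change of 22.07 ± 3.84 (SE) with an adjusted p of 2.57e-05. The exact rank-sum p for the same gene was 0.397 (n = 63 and 4). The gene was called in each of the 4 conditioning classes (log2 fold changes of 19.85 to 22.34, DESeq2 adjusted p of 0.000367 to 0.00459) and in the fit over both water treatments (21.96, DESeq2 adjusted p = 3.35e-06). It was not called by edgeR (adjusted p = 1.0). Fitted with the sites as separate levels, it was called at none of them, and the mean of the site contrasts was a log2 fold change of 0.70 (DESeq2 adjusted p = 1.0). A fitted fold change against mock libraries that are all at 0 depends on the fit and is not a bound.

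A set of 3 called genes carried near-identical profiles and lengths, and were singled out after their values had been seen. Td00002ba036638 and Td00002ba036652 lie on chromosome 13 (chr13:13483954-13486876 and chr13:14135060-14137980), and Td00002ba045884 lies on an unplaced scaffold (scaf_66:11167491-11170413), with lengths of 2923, 2921 and 2923 bases. Td00002ba036652 ranged over 0, 0 and 320 normalized counts (lowest, median and highest) in live plants, against 0 in each of the 4 mock plants. The log2 values of the 3 genes ran together over the 63 live libraries with a Pearson r of 0.98 to 0.99, a description over libraries that share their depth. Each of the 3 reached 10 normalized counts in 17 live libraries and was highest in CWR drought replicate 13, with 14.8% to 17.3% of its counts there. For each of the 3 genes 8 of the 17 plants had received TRI inoculum, while SVR gave 4, WEL 3 and CWR 2. The median of Td00002ba036652 was 43.9 with TRI inoculum and 0 at each other site and in mock plants, a difference between sites that was not tested. The DESeq2 adjusted p was 1.12e-11 for Td00002ba036652 and the exact rank-sum p 0.168 (n = 63 and 4). In the fit over both water treatments the same gene had a DESeq2 adjusted p of 0.710. All values of the 3 genes were whole numbers, and whether reads of 1 gene were placed on another cannot be told apart from shared expression, so the 3 calls are not separate pieces of evidence.

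**Figure D2:**
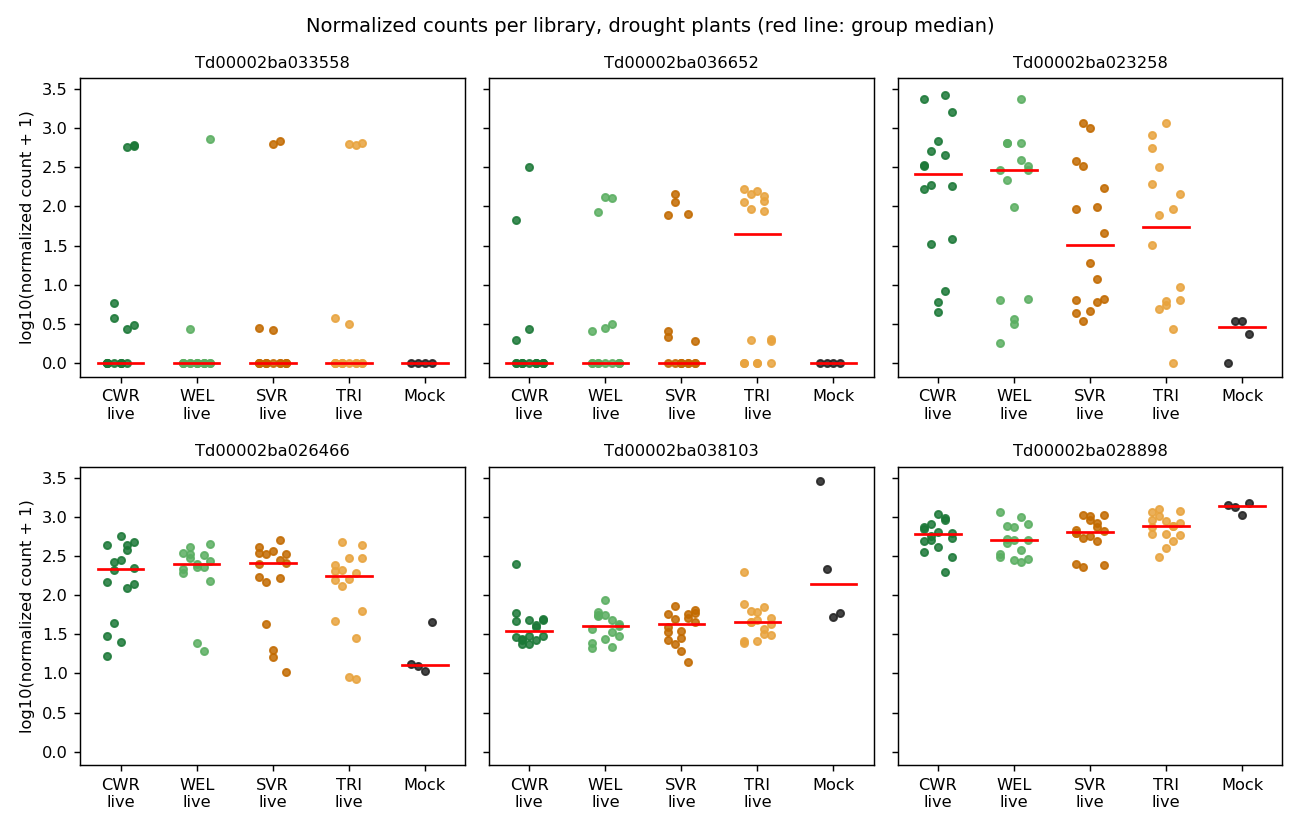
The vertical axis gives log10(normalized count + 1) for 6 genes in each drought library, by site of the live inoculum and for mock plants, with the group median as a red line. In Td00002ba033558 and Td00002ba036652 most live plants share the 0 of the mock plants, while in Td00002ba038103 1 mock library stands at 2887 and the live plants lie between 12.9 and 246.

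Such shared profiles recurred. Among the 39 called genes, 13 fell into 6 groups whose log2 values correlated at r above 0.8 over the live libraries, which left 32 separate profiles (25 higher and 7 lower). Td00002ba027805 and Td00002ba027886, both 3551 bases long and both on chromosome 8 (chr8:125943502-125947052 and chr8:129740339-129743889, r = 0.97), had the highest shares of counts in 1 library among called genes that were higher and had a mean of 50 or more. TRI drought replicate 6 held 16.2% and 14.8% of their counts. Td00002ba027886 stood at 0, 5.03 and 2637 normalized counts (lowest, median and highest) in live plants, against 0 in every mock plant, and 30 live plants reached 10 counts. For counting error only, its mean in the live plants measured was at least 350-fold above that of the mock plants. The DESeq2 log2 fold change was 10.45 ± 2.04 (adjusted p = 0.00063), with an exact rank-sum p of 0.0133 (n = 63 and 4). Against separate sites the fitted log2 fold changes of the same gene were 22.58 to 22.87. Td00002ba027805 stood at 0, 6.68 and 3065 in live plants, against 2.20, 0, 2.48 and 0 in mock plants. Its DESeq2 adjusted p was 0.0306, and without any 1 mock library it was 0.0875 to 0.231. Chromosome 8 held 11 of the 39 called genes, 10 of them higher, while it holds 6.31% of the genes fitted. Of those 10, 5 lay between 117889576 and 129743889. Correlated pairs were among these 11 genes, so they hold fewer separate profiles. The pairs were Td00002ba025890 with Td00002ba025891, Td00002ba027771 with Td00002ba027832, and Td00002ba027805 with Td00002ba027886 (r of 0.97 to 0.98).

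A smaller set of genes was active in most live plants and low in all mock plants. For 16 of the 30 genes called higher, the live median was above the highest mock library, and in 10 of the 30 over 50% of the live plants reached 10 normalized counts. Td00002ba023258 and Td00002ba026466 were singled out here after their values had been seen, since they joined a small rank-sum p to a DESeq2 call that held in each of the 4 fits that left out 1 mock library.

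Td00002ba023258 (chr7:69349017-69357416, orthologue of the maize gene Zm00001eb238470) ranged over 0, 97.8 and 2657 normalized counts in live plants, against 0, 2.44, 2.48 and 1.33 in mock plants. Above the highest mock plant stood 59 of the 63 live plants, and 42 live plants reached 10 counts. The site medians were 54.3 normalized counts for TRI, 31.3 for SVR, 289.8 for WEL and 260.1 for CWR. The mean was 352.5 ± 582.7 in live plants, against 1.56 ± 1.17 in mock plants (SD, n = 63 and 4), with a log2 fold change of 7.81 ± 1.34 (DESeq2 adjusted p = 1.94e-05). The exact rank-sum p was 0.000256 (n = 63 and 4) and did not pass adjustment over all genes. No edgeR call was made for it (edgeR adjusted p = 1.0). In well-watered plants, scaled together with the drought libraries, the mock plants stood at 0, 3.20 and 99.9 normalized counts. Live well-watered plants ranged over 0, 166.5 and 2589. The well-watered log2 fold change was 3.21 ± 1.35 and was not called (DESeq2 adjusted p = 0.733).

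Td00002ba026466 (chr8:33308571-33311219, orthologue of the maize gene Zm00001eb347180) was the least uneven of the genes called higher, with 4.02% of its counts in its highest library. It ranged over 7.63, 223 and 570 normalized counts in live plants, against 12.1, 11.4, 9.90 and 43.8 in mock plants. Above the highest mock plant stood 50 live plants, and 3 live plants were below the lowest mock plant. The log2 fold change was 3.54 ± 0.67 (DESeq2 adjusted p = 0.000242, edgeR adjusted p = 0.420), and the exact rank-sum p was 0.00254 (n = 63 and 4). Site medians lay between 173.5 in TRI and 252.8 in SVR, and each site differed from mock with a log2 fold change of 3.26 to 3.70. In well-watered plants, scaled together with the drought libraries, it ranged over 0, 133.99 and 435.7 normalized counts in live plants, against 102.4, 189.0 and 268.8 in mock plants, and all 3 mock values lay inside the range of the live plants.

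The 9 genes called lower in live plants were mostly carried by 1 mock plant. In 8 of the 9, over 50% of all mock counts lay in 1 mock library (44.7% to 95.98% over the 9 genes), against 28.5% of the genes with an adjusted p and any mock count. The same held for 10 of the 13 genes called higher with any mock count (76.9%). The median of the mean normalized count was 10.7 over the 9 lower genes, against 206.7 over all genes fitted, so the 28.5% come from more abundant genes. In 8 of the 9 the highest of the 67 libraries was a mock library. The highest mock library was replicate 1 in 6 genes, replicate 4 in 2 and replicate 3 in 1. In only 3 of the 9 was the live median below the lowest mock library. All 15 edgeR calls had over 50% of their mock counts in 1 mock library, and all 15 had a mock library as the highest of the 67. For 8 of these 15, DESeq2 gave no adjusted p because of an outlying count.

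Td00002ba038103 (chr13:102923481-102931939) was the only gene that DESeq2 called lower with a mean of 50 or more. It ranged over 12.9, 40.7 and 246 normalized counts in live plants, against 2887, 213.6, 51.98 and 58.4 in mock plants. Mock replicates 2, 3 and 4 stood inside the range of the live plants. Mock replicate 1 alone held 47.05% of the counts of all 67 libraries and 89.9% of those of the mock libraries. The mean was 46.4 ± 35.7 in live plants, against 803 ± 1391 in mock plants (SD, n = 63 and 4). The log2 fold change was -4.11 ± 0.49 (DESeq2 adjusted p = 1.37e-12, edgeR adjusted p = 5.67e-14), and the exact rank-sum p was 0.00563. Without mock replicate 1 the log2 fold change was -1.22 and the call was lost (DESeq2 adjusted p = 1.0), and without mock replicate 2 DESeq2 gave no adjusted p. Td00002ba038104 on the other strand (chr13:102929548-102930895) overlaps it and followed it over live libraries (r = 0.93), with 7.97, 19.9 and 123.1 normalized counts in live plants, against 255.8, 73.9, 24.8 and 27.9 in mock plants. Counting did not use strand, so the reads of the overlapping pair cannot be told apart, and both genes were listed with the same maize orthologues, Zm00001eb305100, Zm00001eb322380, Zm00001eb161960 and Zm00001eb161950.

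The same unevenness was found in the lower genes of low mean, named here after their values had been seen. Td00002ba027027 (chr8:58219428-58224258, orthologue of Zm00001eb084600) was the 1 called gene with over 50% of its counts in 1 of the 67 libraries. Mock replicate 1 held 77.5% of them. It stood at 0, 0 and 15.3 normalized counts in live plants, against 387.6, 16.2, 0 and 0 in mock plants (DESeq2 log2 fold change -6.02 ± 1.33, exact rank-sum p = 0.370). Td00002ba000330 (chr1:25026378-25027351) stood at 0.854, 5.66 and 26.8 in live plants, against 1.10, 14.6, 6.19 and 249.5 in mock plants, and mock replicate 4 held 91.9% of the mock counts. Values of that gene include reads shared with an overlapping gene on the other strand, and 53.7% of them were not whole numbers.

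Less uneven among the lower genes was a pair of tandem neighbours on chromosome 7, also named after their values had been seen, of which Td00002ba023166 was the 1 lower gene with under 50% of its mock counts in 1 library (44.7%). Td00002ba023165 (chr7:61070690-61071109) and Td00002ba023166 (chr7:61084841-61085260), 420 bases long each, share the maize orthologue Zm00001eb238210 with the next gene upstream, Td00002ba023164 (chr7:61051242-61056958). Td00002ba023166 ranged over 2.77, 20.9 and 57.4 normalized counts in live plants, against 117.5, 69.02, 27.2 and 49.1 in mock plants, with 47 of 63 live plants below the lowest mock plant. The log2 fold change was -1.48 ± 0.35 (DESeq2 adjusted p = 0.0255, exact rank-sum p = 0.00134). Td00002ba023164 ranged over 25.9, 72.7 and 281.7 in live plants, against 304.1, 153.5, 144.8 and 119.4 in mock plants, and 58 live plants were below the lowest mock plant. It was not called (log2 fold change -1.17 ± 0.33, DESeq2 adjusted p = 0.222, exact rank-sum p = 0.000185). Each of the called pair kept its call in 2 of the 4 fits that left out 1 mock library. The smallest rank-sum p of all 35828 genes belonged to another gene that was not called, Td00002ba028898 (chr9:19026916-19028843, orthologue of Zm00001eb187810). It ranged over 198.7, 622 and 1251 normalized counts in live plants, against 1410, 1316, 1062 and 1479 in mock plants, and 58 of 63 live plants were below the lowest mock plant. Its mean was 652 ± 275.9 in live plants, against 1317 ± 182.7 in mock plants (SD, n = 63 and 4), a log2 fold change of -1.01 ± 0.32 (DESeq2 adjusted p = 0.575, exact rank-sum p = 7.05e-05 before adjustment and 1.0 after it).

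Dominance of a gene by 1 library was measured as the share of its summed normalized counts in the highest of the 67 drought libraries, where equal shares would be 1.49%. Over 44116 genes with counts the median share was 5.21%, and 2208 genes (5.00%) had more than 50% of their counts in 1 library. Of genes with a mean of 50 or more, 59 of 27561 (0.214%) did. All 59 were dominated by a live library, where 63 of the 67 libraries were live. Of the 59, CWR drought replicate 11 dominated 19, TRI drought replicate 6 dominated 12 and TRI drought replicate 8 dominated 12. Each mock library dominated 16 to 30 genes of any mean (median 23.5), against 16 to 144 genes for each live library (median 28). The most extreme gene of that mean was Td00002ba019813 (chr6:3898189-3900358), with 98.96% of its counts in CWR drought replicate 12. It stood at 0, 0 and 6734 normalized counts in live plants, against 6.59, 0, 0 and 1.33 in mock plants, and was not called. Among the 39 called genes the median share was 13.6%, with 4.02% to 45.2% over the 30 higher genes and 6.73% to 77.5% over the 9 lower ones. The pair with 45.2% and 44.8%, Td00002ba025890 and Td00002ba025891, were neighbours on chromosome 8 with the maize orthologue Zm00001eb072060 (r = 0.97), and both were highest in CWR drought replicate 12. Leaving out CWR 11, TRI 6 and TRI 8, a choice made after seeing the data, gave 44 calls (35 higher), 37 of them among the 39.

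**Figure D3:**
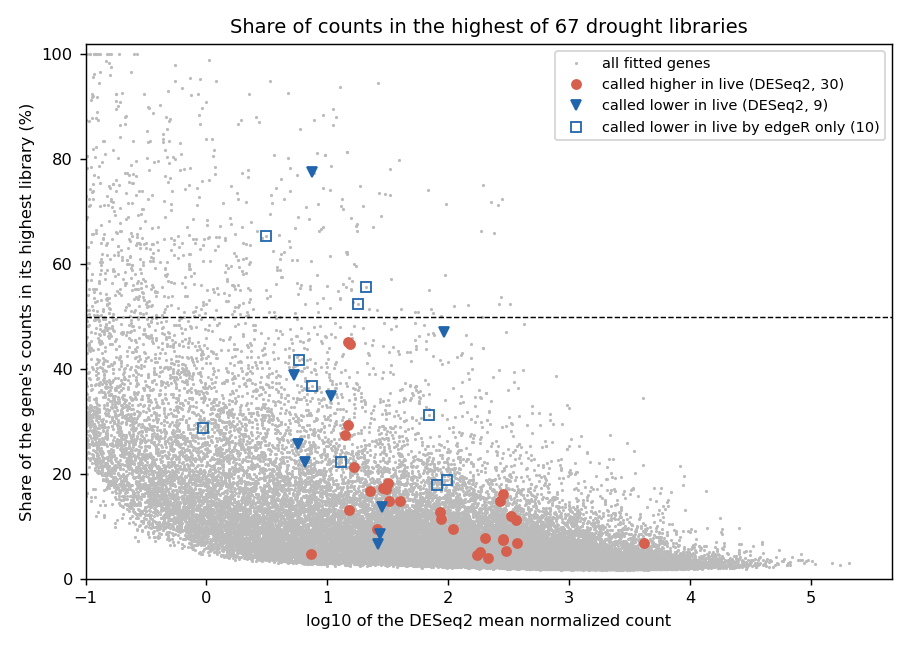
The horizontal axis gives log10 of the DESeq2 mean normalized count and the vertical axis the percent of a gene's counts in its highest drought library, for all fitted genes in grey (those with a mean under 0.1 lie off the axis). Genes called higher in live plants lie between 4.02% and 45.2%, and 4 of the 15 edgeR calls and 1 of the 9 DESeq2 calls that were lower lie above the dashed line at 50%.

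The number of calls moved with the libraries and covariates used. Leaving out 1 mock plant at a time gave 35 to 60 calls, of which 24 to 31 were among the 39. Called in all 4 of these fits were 20 of the 30 higher genes and 0 of the 9 lower genes. A gene at 0 in all 4 mock libraries, as 17 of the 30 were, stays at 0 whichever mock library is left out. Keeping such a call is therefore not separate support for it. The labels give each plant a number and no further meaning for it, and 2 mock plants had a number below the median and 2 above it. Among plants numbered below the median 82 genes were higher and 34 lower, and among those above it 63 were higher and 14 lower. Of these, 21 and 14 were among the 39. With a spline of plant number as a covariate there were 151 calls, 35 of them among the 39, and with 2 surrogate variables 204 (24 lower), 37 of them among the 39.

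**Figure D4:**
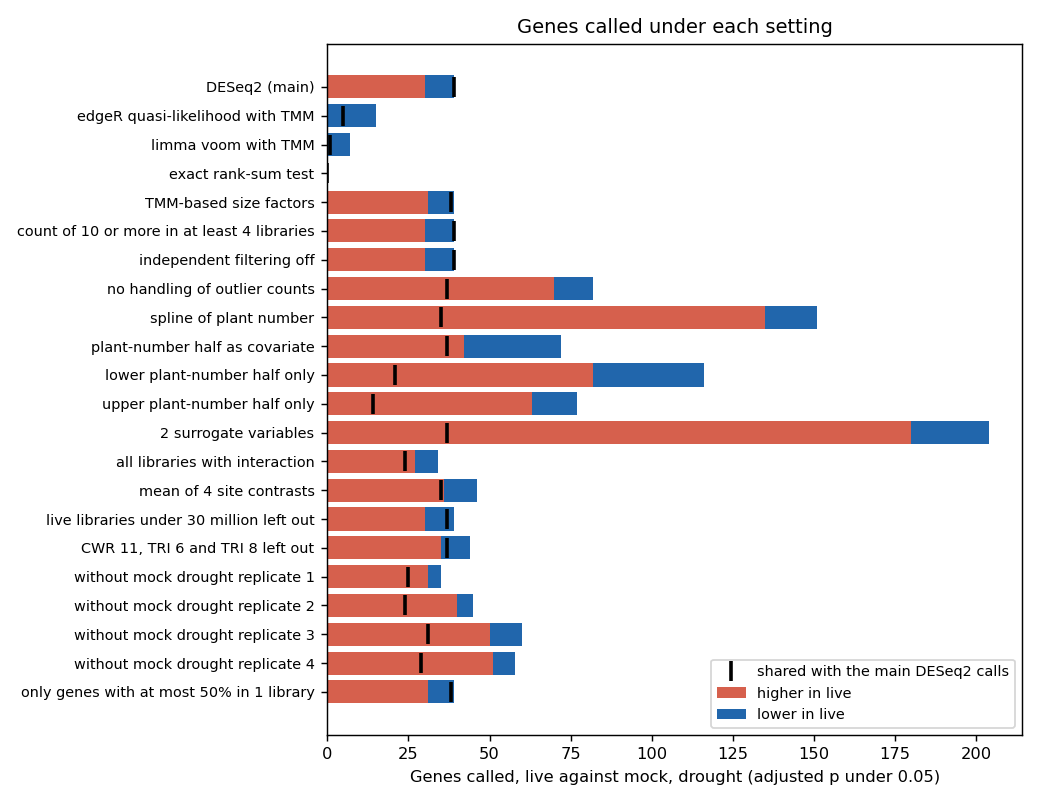
Bars give the number of genes called in the drought comparison under each setting, divided into those higher and lower in live plants, and the black mark gives how many are shared with the main DESeq2 calls. The count runs from 0 with the exact rank-sum test and 15 with edgeR to 204 with 2 surrogate variables.

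Each site against the same 4 mock plants gave a like number of calls. DESeq2 called 43 genes for CWR (0.100% of those tested), 41 for WEL (0.0936%), 44 for SVR (0.100%) and 37 for TRI (0.0844%). Higher in live plants were 32 (TRI) to 36 (SVR) of these, of which 21 or 22 per site had all 4 mock libraries at 0. In all, 61 genes were called in at least 1 site and 27 in all 4, which share their mock libraries. With edgeR the sites gave 8, 13, 9 and 10 calls, and 2 of the 13 for WEL were higher. The 4 conditioning classes gave 34 calls for gamagrass host and drought stress (0.0776%), 45 for gamagrass host and ample water (0.111%), 44 for no host and drought stress (0.122%) and 46 for no host and ample water (0.105%). Td00002ba038103 fell in each class, with log2 fold changes of -4.36, -3.81, -3.98 and -4.35, all against the mock group that holds replicate 1.

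Lists of genes were taken from the study, most of them with a role given in its text. For mads58, ms33 and pat3 the study gives symbols only, and all their gamagrass orthologues were taken, including ones it does not name. None of the 4 genes annotated as nicotianamine synthase (nas7, which makes the metal chelator nicotianamine), 5 linked to ethylene or ABA signalling of water stress, 1 heat shock protein, 5 orthologues of pathogen defence genes, 1 orthologue of a gene for the response to symbiotic fungi, 4 further enzymes and 19 orthologues of mads58, ms33 and pat3 was called in either direction, beside 0.0893% of all genes tested, so that a count of 0 over lists this short is near the background. The unadjusted DESeq2 p was under 0.05 in 1 of them, an orthologue of ms33, beside 3.48% of all genes with a p-value, and DESeq2 gave no adjusted p for 2 of the nas7 and 3 of the defence genes. The list medians of the log2 fold change were -1.03 for nas7, -0.36 for ethylene or ABA, -0.36 for pathogen defence, 0.01 for the enzymes and 0.59 for the orthologues of mads58, ms33 and pat3, beside 0.05 over all genes fitted. The genes that the study named in gamagrass were chosen from comparisons that include the live libraries, so they are not independent of them. Genes for pathogen defence and for the response to symbiotic fungi were named from its maize plants and reached here through orthologues. Of these, the study also reported gamagrass orthologues of the pathogenesis-related gene as sensitive to the inoculum.

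The nas7 genes were the clearest case of single-library dominance among them. All 4 had 78.6% to 81.3% of their counts in TRI drought replicate 6. Td00002ba015526 (chr4:155320351-155321274) stood at 0, 0.891 and 15641 normalized counts in live plants, against 15.4, 69.02, 0 and 5.31 in mock plants, and 3 live plants were above the highest mock plant. By plain means the gene was 13.6-fold higher in live plants, while the DESeq2 fit, which replaced 2 outlying counts, gave a log2 fold change of -1.61 ± 1.68. With edgeR, which replaced none, it was 3.73, and without mock replicate 2 it was 0.088 in DESeq2, so that the sign depended on the test and on 1 mock library. The 4 genes form 2 overlapping pairs on opposite strands with 1 maize orthologue, Zm00001eb396120, so their counts are not separate measurements.

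Among the 5 defence genes, an overlapping pair had its highest library among the mock plants and the other 3 theirs among the live plants. Td00002ba005375 (chr2:23535634-23536814), an orthologue of a maize gene for a pathogenesis-related protein, stood at 0, 9.66 and 3278 normalized counts in live plants, against 2.20, 4.06, 7906 and 15.9 in mock plants. Mock replicate 3 held 44.1% of the counts of all 67 libraries. The fitted log2 fold change was -4.61 ± 1.46, DESeq2 gave no adjusted p because of the outlying count, and the exact rank-sum p was 0.655. Without mock replicate 3 the sign turned, with a log2 fold change of 3.86. With WEL inoculum alone the pair was called lower in the fits without mock replicate 1, 2 or 4 (Td00002ba005375, log2 fold change -7.32, DESeq2 adjusted p of 0.0132 to 0.0142), and without mock replicate 3 its log2 fold change was 1.15 (DESeq2 adjusted p = 0.999). Td00002ba005376 on the other strand held almost the same counts. The other 3 had 29.5% (Td00002ba019413, CWR drought replicate 11), 17.2% (Td00002ba028085, WEL drought replicate 11) and 9.21% (Td00002ba031190, WEL drought replicate 8) of their counts in 1 library. Their log2 fold changes were 0.43 ± 1.07, 0.58 ± 0.996 and -0.36 ± 0.75.

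Genes of the other lists, the largest change of each, overlapped between live and mock plants as well. Td00002ba011993, orthologue of the maize ethylene-responsive factor ereb177, ranged over 7.46, 73.6 and 1194 normalized counts in live plants, against 41.7, 198.1, 273.5 and 342.3 in mock plants (log2 fold change -0.96 ± 0.63, exact rank-sum p = 0.0781). Only 2 live plants were above the highest mock plant, but 1 mock plant was below the live median. Td00002ba006103, orthologue of a maize gene for the response to symbiotic fungi, ranged over 0, 25.4 and 81.1 in live plants, against 21.96, 23.5, 19.8 and 0 in mock plants (0.88 ± 0.60). The heat shock protein gene Td00002ba042486 ranged over 0, 4.23 and 1671 in live plants, against 1.10, 4.06, 4.95 and 7.96 in mock plants (2.16 ± 1.22), with 34.6% of its counts in TRI drought replicate 15. The peroxidase gene Td00002ba025285 ranged over 0, 59.04 and 1144 in live plants, against 59.3, 268.8, 24.8 and 27.9 in mock plants (0.65 ± 0.94). Td00002ba027655, an orthologue of ms33, ranged over 0, 10.4 and 239 in live plants, against 1.10, 2.44, 0 and 1.33 in mock plants (4.74 ± 1.49). None of these passed the test over all live plants (DESeq2 adjusted p of 0.553 for the ms33 orthologue and 1.0 for the others). With TRI inoculum alone the heat shock protein gene Td00002ba042486 was called higher (log2 fold change 5.78 ± 1.32, DESeq2 adjusted p = 0.0174), with 0, 6.53 and 1671 normalized counts in the 16 TRI plants. That call held without mock replicate 4 and was lost without replicate 1, 2 or 3 (DESeq2 adjusted p of 0.0529 to 0.173), and edgeR did not make it (adjusted p = 1.0).

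The well-watered plants of the same series offered mock libraries that the drought comparison did not use. Of them 3 mock libraries entered, with 49.4, 11.7 and 18.96 M counts, since mock well-watered replicate 1 held 6045 counts, and 62 live libraries with 1.14 to 69.4 M. Values in this and the next paragraph were scaled over the libraries of both waters together. By the labels every well-watered plant had a higher plant number than every drought plant. Differences between the waters therefore cannot be told apart from plant number. In well-watered plants 60 genes were called in the fit over both waters (0.147%), 53 of them higher in live plants. Of the 60, 3 (5.00%) were also among the 39 calls of the drought libraries alone, and make up 7.69% of those. All 3 (Td00002ba025837, Td00002ba025890 and Td00002ba025891) were higher in live plants, at 0 in all 7 mock libraries, and at 0 at the median in live plants of both waters. Td00002ba025890 and Td00002ba025891 are the neighbours with r = 0.97 described above. Of the 30 genes higher in drought, 22 reached 10 normalized counts in at least 1 well-watered mock library, and 7 did so in all 3. Td00002ba023829 (chr7:97179422-97181181, orthologue of Zm00001eb316570), named after its values had been seen, ranged over 0, 35.1 and 507 in live drought plants, against 0 in all 4 drought mock plants. In well-watered plants it ranged over 0, 1.58 and 448.6 in live plants, against 274.97, 256.3 and 245.2 in mock plants.

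The difference between the live and mock contrast in drought and that in well-watered plants was tested as an interaction, and 35 genes were called by DESeq2 (0.0791%), 10 with a higher and 25 with a lower contrast in drought. In 28 of the 35, all mock libraries of 1 water treatment were at 0. With edgeR none of 38022 genes was called, and 1276 had an unadjusted p under 0.05. Td00002ba045884 ranged over 0, 0 and 286.4 in live drought plants, against 0 in all 4 mock plants, and over 0, 0 and 308.3 in live well-watered plants, against 43.9, 96.1 and 334.2 in mock plants (interaction 23.30 ± 4.08 on the log2 scale, DESeq2 adjusted p = 4.54e-05). Td00002ba027886 had a mock value above 0 only in well-watered plants, with 99.5, 0 and 0 (interaction 20.73 ± 3.06). The 2 smallest p-values with a lower contrast in drought belonged to Td00002ba008417 and Td00002ba038215. Td00002ba008417 (chr2:184598949-184601347) ranged over 0, 2.50 and 242.5 in live drought plants, against 0.804, 206.3, 0 and 0 in mock plants, and over 0, 3.35 and 336.3 in live well-watered plants, against 0, 0 and 0 in mock plants (interaction -21.10 ± 2.78). Td00002ba038215 (chr14:11148943-11150486) ranged over 0, 18.01 and 707 in live drought plants, against 166.5, 0, 355.5 and 0 in mock plants, and over 0, 2.89 and 795 in live well-watered plants, against 0, 0 and 0 in mock plants (interaction -21.01 ± 2.81). In each of the 4 genes the mock plants of 1 water were all at 0, as were 16 to 40 of the live plants of either water.

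**Figure D5:**
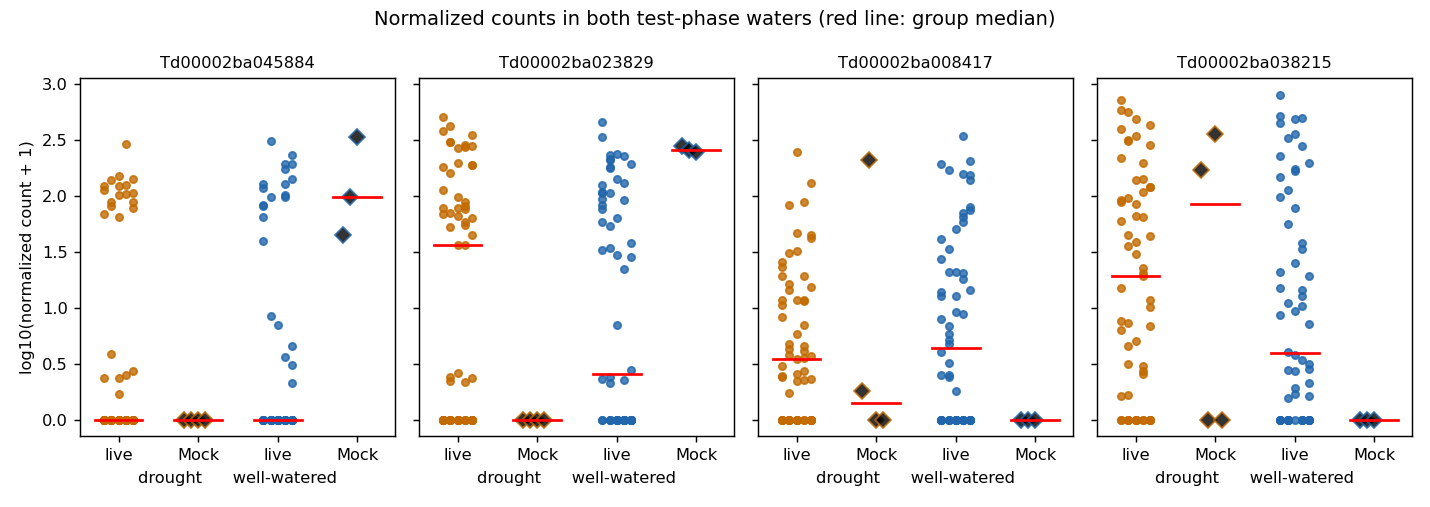
The vertical axis gives log10(normalized count + 1) in live and mock libraries under drought and under ample water (63, 4, 62 and 3 libraries), with the group median as a red line. Live plants cover like ranges in both waters, while the mock plants of 1 water stand at 0 in each gene.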

How the data were processed

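Poly(A) libraries of single crown roots were made with a directional kit. Per the labels and the file headers, the authors trimmed reads with cutadapt, aligned them with HISAT2, processed alignments with SAMtools and counted them per gene with featureCounts (version 2.0.5), with fractions for reads of several genes or places and without strand. The deposited expected counts were not normalized, and 15.0% of the drought values were not whole. They were rounded to whole numbers here and scaled with DESeq2's median-of-ratios size factors (normalized counts). Coordinates are those of the gamagrass build Td-KS_B6_1-REFERENCE-PanAnd-2.0a. Neither deposited table pairs gene identifiers with names; 32785 genes (71.5%) had a maize orthologue in the second table.

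DESeq2 1.42.0 (Wald test, Benjamini-Hochberg adjustment, adjusted p under 0.05, R 4.3.3) was the main test, with edgeR 4.0.16, limma 3.58.1, sva 3.50.0 and an exact rank-sum test on log2 CPM (TMM, prior count 1) as alternatives, besides other scaling, filters, covariates and left-out libraries. All p-values are two-sided. Scripts were tested on simulated data, where DESeq2 called more unchanged genes than edgeR or the rank-sum test did. Named genes were the 2 highest and 2 lowest fold changes, and the 2 in each direction with the highest share in 1 library, among called genes with a mean (after DESeq2's replacement of outlying counts) of 50 or more, where only 1 gene was lower; genes also called by edgeR and the rank-sum test, of which there were none; per list the largest change; and the 2 smallest interaction p-values per direction. The comparison, lists and rules were chosen with earlier results of these data known. Depth sets the precision, given as standard errors.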

Additional observations from a re-analysis of the deposited data

Results flagged for a closer look

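Within the 4 mock drought libraries, the gap of 1 library to the others exceeded Dixon's 95% critical value in 9 of 32 genes examined. Chance flags about 1 in 20 for normally distributed values. That rate need not hold for normalized counts, which are skewed and often 0. Mock replicate 1 stood apart with 2887 normalized counts in Td00002ba038103 and 387.6 in Td00002ba027027. Mock replicate 2 stood apart with 268.8 in Td00002ba025285 and 280.1 in Td00002ba008417 (scaled over the drought libraries alone). Mock replicate 3 stood apart with 7906 in Td00002ba005375 and 4.95 in Td00002ba027832, a count against 0 in the others. Mock replicate 4 stood apart with 43.8 in Td00002ba026466 and 249.5 in Td00002ba000330, and with 0 in Td00002ba006103. The genes examined overlap with those chosen for their values, so the share is not a rate over genes.

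The live and mock contrast differed between drought and well-watered plants in 35 genes by the DESeq2 interaction test. Water treatment cannot be told apart from plant number in that test, because all well-watered plants had higher numbers than the drought plants. The named ones had interactions on the log2 scale of 20.73 (Td00002ba027886), 23.30 (Td00002ba045884), -21.10 (Td00002ba008417) and -21.01 (Td00002ba038215). Each rests on a mock group at 0 in 1 water treatment, so these values are not sizes of a difference, and edgeR called none of the 4.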

How the results depend on the processing

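The 39 calls of the drought comparison became 15 with edgeR, 7 with limma voom and 0 with the exact rank-sum test (1046 genes with an unadjusted p under 0.05). In the rank-sum test no single gene could pass the adjustment alone. The DESeq2 calls became 82 without the handling of outlying counts, 151 with a spline of plant number, 72 with a covariate for plant numbers below and above the median, and 204 with 2 surrogate variables. Below the median plant number 82 genes were higher and 34 lower, and above it 63 and 14. Leaving out 1 mock library at a time gave 35 to 60 calls, other scaling, filters and live libraries left out gave 39 to 44, the fit over both water treatments 34 and the mean of the site contrasts 46. By site, edgeR gave 8 calls for CWR, 13 for WEL, 9 for SVR and 10 for TRI, and leaving out 1 mock library gave 42 to 74, 54 to 72, 40 to 68 and 41 to 78. By conditioning, edgeR gave 7 calls for host and drought stress, 10 for host and ample water, 9 for no host and drought stress, and 8 for no host and ample water, and leaving out 1 mock library gave 44 to 69, 40 to 77, 45 to 77 and 46 to 71. For the interaction edgeR gave 0 calls (1276 genes with an unadjusted p under 0.05), against 35 in DESeq2. No called gene changed sign in another setting where it was called again. Of genes not called, Td00002ba015526 (-1.61) turned positive with edgeR (3.73), without the handling of outlying counts (3.76), with the spline (0.80), above the median plant number (1.58), and with 2 surrogate variables (0.20), and ran from -2.03 to 0.088 without 1 mock library, positive without replicate 2. Td00002ba005375 (-4.61) turned to 0.18 in the difference of medians beside the rank-sum test, and to 1.62 below the median plant number, and ran from -5.03 to 3.86 without 1 mock library, positive without replicate 3. Td00002ba042486 (2.16) was -0.050 in that difference of medians, and Td00002ba025285 (0.65) was -0.090 with limma voom. The causes were not tested. The share of variation by inoculum type stayed at an exact permutation p of 0.606 to 0.942 with the other distance and without any 1 mock library (1.09% to 1.31%).

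With 4 mock plants, 1 mock library can set the mock mean, and a gene at 0 in all 4 gives no size of a fold change. A p that misses the threshold does not show that live and mock plants were alike. No paired analysis was possible because live and mock plants share no number in the labels, and replicate numbers were given in accession order.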
